A study of Drosophila melanogaster with 4 samples.

Results

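The mRNAs that encode the initiation, elongation and release factors of cytoplasmic translation were followed in polysome and input libraries of fly ovaries enriched for germline cysts. They were chosen by symbol: every gene whose FlyBase symbol begins with eIF, eEF or eRF and a digit was taken, which gave 53 of the 17699 genes in the files. Of these 53, 47 had enough counts to be tested and 6 did not. The rule used names and no measured value.

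Initiation factors bring the small ribosomal subunit, the initiator tRNA and the mRNA together. eIF2 carries the initiator tRNA, eIF2B recharges eIF2 with GTP, eIF3 is the large scaffold on the small subunit, and the cap-binding eIF4 group recruits and unwinds the mRNA. Elongation factors then deliver charged tRNAs and move the ribosome along, and release factors free the finished protein at the stop codon. In the fly germline several of these proteins have paralogs, some of them known for roles in the testis, and control of initiation is a common way to hold maternal mRNAs silent in the ovary.

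All 4 libraries came from ovaries of flies of the same genotype, in which UAS-Dicer2;NosGAL4 drove bam RNAi in the presence of hs-bam. There were 2 polysome and 2 input libraries, numbered 1 and 3 in each fraction. NosGAL4 restricts the knockdown of bam to the germline, where it holds germ cells before differentiation, and the heat-shock transgene then supplies bam and releases them into cysts. Flies received a 37°C heat shock of 2 h, a rest of 4 h and another shock of 2 h, over 2 days. Ovaries were taken from flies 3 to 5 days past eclosion. The ovaries still held somatic cells, the cysts were a mixture of stages, and the heat shock was shared by every library. Polysome RNA was extracted by phenol-chloroform and input RNA by TRIzol, and extraction and fraction therefore cannot be told apart. The comparison asks which factor mRNAs sit on several ribosomes to a greater or lesser extent than their share of the lysate.

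Gene counts totalled 19452659 and 22647905 in polysome 1 and 3 and 10646651 and 12298615 in input 1 and 3. Polysome 3 stood apart, correlating over genes at 0.851 to 0.859 with each of the others on the log2(CPM + 1) scale, whereas the other 3 libraries each reached 0.920 to 0.922 with at least 1 library. All 7 germline markers measured (vas, bam, bgcn, zpg, stwl, aub and ovo) had counts in every library. Their summed level was 901 and 986 CPM in the polysomes and 919 and 1099 CPM in the inputs. Within that sum bam, bgcn and ovo were lowest in polysome 3, whereas vas, zpg, stwl and aub were highest there. The level of bgcn was 88.1 and 5.14 CPM in the polysomes and 42.8 and 50.1 CPM in the inputs. That of bam was 77.6 and 34.5 CPM in the polysomes and 55.7 and 144 CPM in the inputs. Follicle and other somatic ovary markers (8 genes) summed to 924 and 820 CPM in the polysomes and 1020 and 1588 CPM in the inputs, and the 4 fat body markers to 14.6 and 24.1 CPM in the polysomes and 8.07 and 5.24 CPM in the inputs. Both fat body sums in the polysomes exceeded both in the inputs. All were small, and 3 of the 4 fat body markers had 0 counts in polysome 1. Markers of 3 other kinds differed between libraries as well. All 7 eggshell markers had counts in every library and summed to 1483 and 7998 CPM in the polysomes and 506 and 661 CPM in the inputs. The 5 growing-oocyte markers summed to 126 and 1876 CPM in the polysomes and 158 and 98.0 CPM in the inputs, and the 8 muscle sheath markers to 24110 and 6602 CPM in the polysomes and 21433 and 26896 CPM in the inputs. The part of these shifts in the results below was not tested, and in such bulk samples fewer cells of a type and less RNA per cell cannot be told apart.

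Translation factor mRNAs were abundant in every library. They took 4.62% (95% Wilson interval 4.61% to 4.62%) and 5.38% (5.37% to 5.39%) of gene counts in polysome 1 and 3, against 4.51% (4.50% to 4.52%) and 4.41% (4.40% to 4.43%) in input 1 and 3. These intervals cover counting error only. In TMM-scaled CPM the order was not the same: their sum was 42473 and 50144 CPM in the polysomes and 46660 and 49922 CPM in the inputs, so the fractions overlapped. The 3 most counted mRNAs, eEF1alpha1, eEF2 and eIF4A, made up 65.8% and 66.0% of the factor counts in the polysomes and 64.3% and 66.3% in the inputs. Without eEF1alpha1, which alone took 39.6% and 47.7% in the polysomes and 42.0% and 44.0% in the inputs, the factors took 2.79% and 2.81% of gene counts in the polysomes and 2.62% and 2.47% in the inputs. By mean input TPM, a level per summed exon length, 31 of the 47 tested factors ranked above the 90th percentile of tested genes. A further 7 ranked below the 50th percentile, namely eIF2D, eIF4B, eIF4EHP, eIF4E3, eIF4E6, eIF3f2 and eEF1alpha2. The rank of eIF4EHP depends on the length used, because its exons sum to 6418 bases whereas 1 annotated transcript has 2401 bases.

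**Figure D1:**
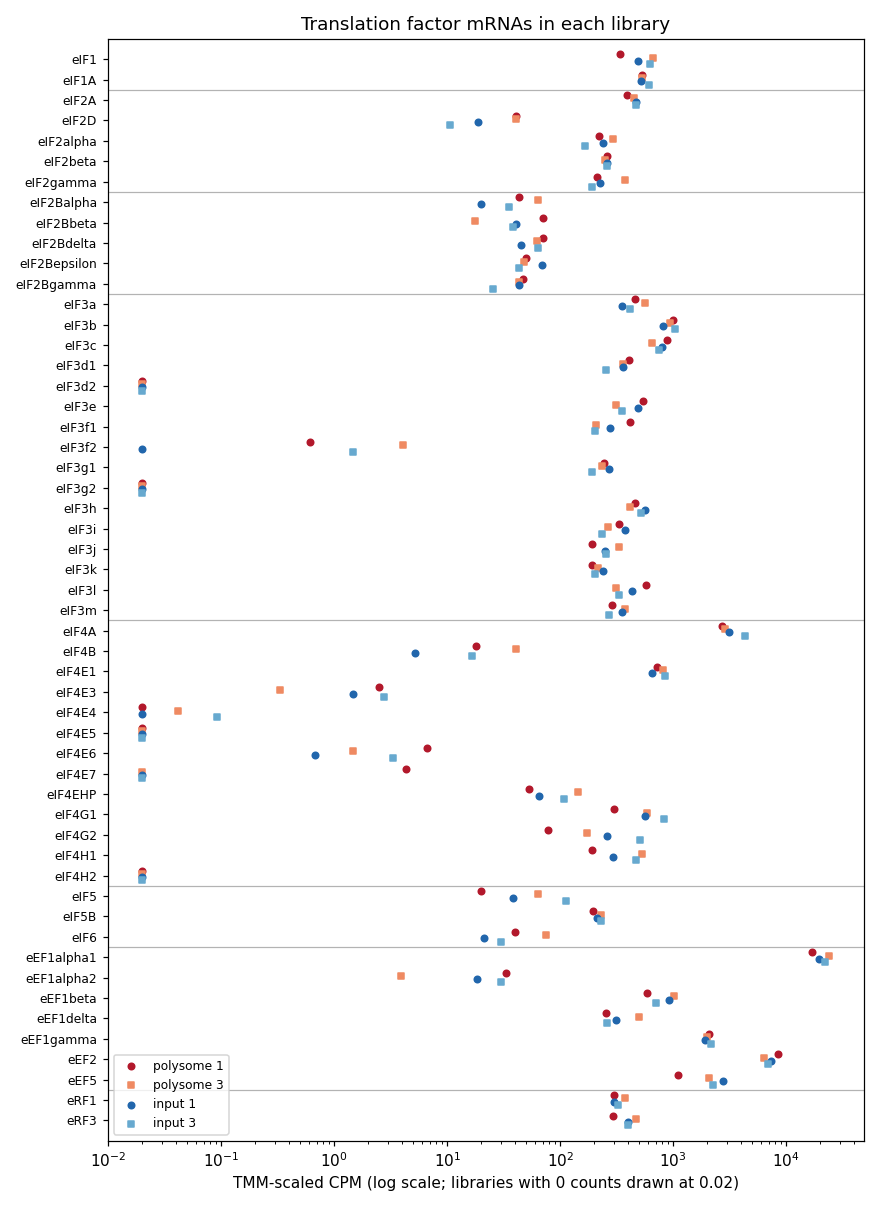
Level of each of the 53 translation factor mRNAs in TMM-scaled CPM on a log axis, with 1 point for each of the 4 libraries (polysome 1 and 3 in red and orange, input 1 and 3 in dark and light blue) and lines between subgroups. Most mRNAs sit above 100 CPM with the points of both fractions mixed, whereas eIF3d2, eIF3g2, eIF4E5 and eIF4H2 have no counts in any library.

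In the quasi-likelihood test of edgeR, no translation factor mRNA passed an adjusted p of 0.05. The test covered 9038 genes and called 0 of them, a background of 0%, with a smallest adjusted p of 0.956. At an unadjusted p under 0.05 it picked 2 of the 47 factors, eIF4G2 on the lower side and eIF2D on the higher side, where 4.68% of all genes tested passed, 2.15% on the higher and 2.53% on the lower side. DESeq2 called 41 genes (0.454%) and no factor, with 2 factors at an unadjusted p under 0.05 and a smallest adjusted p of 0.150. With equal numbers treated as a replicate block, edgeR called 47 genes (0.52%) and again no factor, with 2 factors at an unadjusted p under 0.05. No factor was called with no count filter either (0.952% of genes called), nor without input 1 (0.0816%).

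The factors split evenly in direction, 25 with a positive and 22 with a negative log2 fold change of polysome over input. Their median was 0.036, against -0.0032 over all genes tested. Most lay close to 0: 36 of 47 factors (76.6%) had a log2 fold change within 0.5 of 0, against 52.4% of all genes tested, and among mRNAs with a mean of at least 100 CPM the shares were 90.9% of 33 factors and 65% of 1977 genes. Both polysome libraries lay above both inputs for 6 factors (12.8%), where 17.2% of all genes tested did so, and below both inputs for 5 factors (10.6%), where 18.1% of all genes did. Neither share exceeded its background. The 6 were eIF2D, eIF2Balpha, eIF3a, eIF3d1, eIF4B and eIF6, and the 5 were eIF2A, eIF3h, eIF4A, eIF4G2 and eEF5. Overlap here and below is in TMM-scaled CPM, and it differs in TPM. The 6 stayed above both inputs in TPM, but of the 5 only eIF4G2 stayed below both. In TPM eIF3h, eIF4A and eEF5 overlapped. eIF2A lay above both inputs there, at 259 and 282 TPM in the polysomes and 253 and 256 TPM in the inputs.

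The replicates disagreed on direction for many factors. The log2 polysome-to-input ratios of replicate 1 and replicate 3 had opposite signs in 29 of 47 factors (61.7%), against 48.8% of all genes tested. Across the 47 factors the ratios of the replicates correlated at r = 0.16, as a description over genes that share the same libraries, and at r = 0.043 across all genes tested. Translational efficiency, the log2 ratio of polysome TPM + 1 to input TPM + 1 within a replicate number, had a median over the tested factors of 0.31 in replicate 1 and 0.27 in replicate 3. Over all genes tested it was 0.32 and 0.086 in the same replicates.

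**Figure D2:**
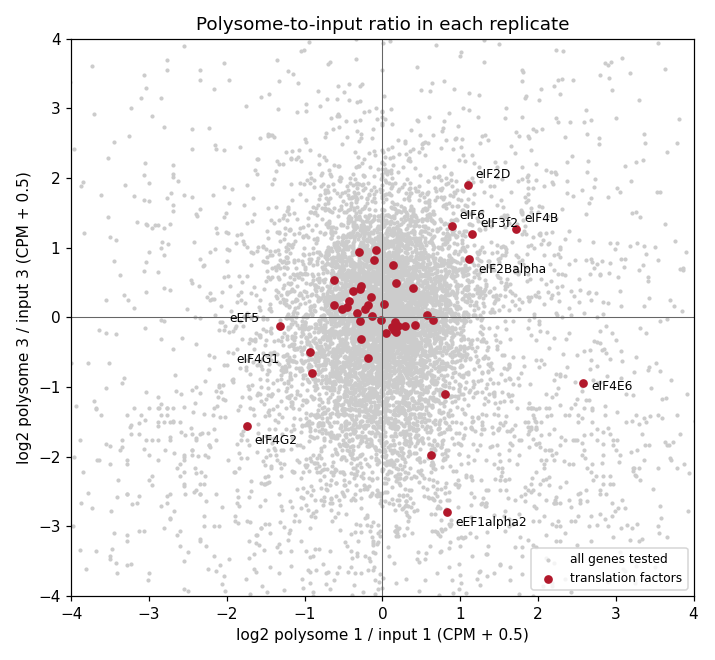
Log2 polysome-to-input ratio (CPM + 0.5) in replicate 1 on the x axis and replicate 3 on the y axis, with translation factors in red over all 9038 genes tested in grey. The axes are limited to 4 in each direction, which leaves some grey genes out; eIF4G2 is low in both replicates, eIF2D, eIF6, eIF4B and eIF2Balpha are high in both, and eEF1alpha2 and eIF4E6 lie on opposite sides.

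Among the factors grouped with eIF2 by symbol, eIF2D had the smallest p on the higher side. eIF2D, a tRNA-binding protein that can act outside the usual eIF2 pathway and in recycling, lies on chromosome 3R from 29149896 to 29151794 in dm6. It was at 40.3 and 40.6 CPM in the polysomes, against 18.6 and 10.5 CPM in the inputs. Both polysome libraries lay above both inputs, by a log2 fold change of 1.48 ± 0.57 (SE) at an unadjusted p of 0.0321 and an adjusted p of 0.956 in edgeR. The estimate stayed between 1.12 and 1.94 with any library left out. Translational efficiency reached 1.38 (replicate 1) and 2.04 (replicate 3).

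The subunits of eIF2 itself showed smaller differences. eIF2gamma, the GTP-binding subunit, was at 211 and 373 CPM in the polysomes and 224 and 190 CPM in the inputs, with a log2 fold change of 0.49 ± 0.43. Leaving out polysome 3 gave 0.0083 and leaving out polysome 1 gave 0.90. Its exons overlap those of Su(var)3-9 over 352 bases on the same strand, so its level is uncertain where the counting could not choose between them. eIF2alpha, the subunit phosphorylated in stress responses, was at 221 and 295 CPM in the polysomes and 239 and 166 CPM in the inputs (0.35 ± 0.41). eIF2beta, which binds eIF5, was the steadiest of the trimer at 258 and 251 CPM in the polysomes and 260 and 257 CPM in the inputs (-0.025 ± 0.37). eIF2A, an alternative initiator tRNA carrier in mammals, was at 387 and 446 CPM in the polysomes and 472 and 464 CPM in the inputs. These did not overlap but differed by only -0.17 ± 0.39, and in TPM the order of the fractions was reversed.

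Transcripts of the exchange factor eIF2B were scarcer than those of its substrate. In TPM the 5 eIF2B subunits lay between 25.5 and 54.9 in the inputs, whereas the 3 subunits of eIF2 lay between 135 and 355 there. The ranges did not overlap in the polysomes either, at 23.0 to 114 TPM for eIF2B and 181 to 432 TPM for eIF2. eIF2Balpha, a regulatory subunit, was the one eIF2B mRNA whose fractions did not overlap in CPM. It was at 43.4 and 63.9 CPM in the polysomes and 19.8 and 35.4 CPM in the inputs (0.96 ± 0.53, and 0.60 to 1.44 with 1 library left out). eIF2Bbeta, with the highest mean input TPM of the group, was at 70.6 CPM in polysome 1 and 17.4 CPM in polysome 3, against 40.2 and 38.1 CPM in the inputs, so the polysome libraries lay on either side of both inputs (0.17 ± 0.67). It was at -1.11 without polysome 1, 0.83 without polysome 3 and -0.16 with the replicate block. The catalytic subunit eIF2Bepsilon (-0.20 ± 0.46), eIF2Bgamma (0.40 ± 0.51) and eIF2Bdelta (0.29 ± 0.44) overlapped between fractions.

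The 13 general subunits of eIF3 were of similar abundance and lay close to their input levels. The lowest to highest subunit spanned 223 to 701 TPM in polysome 1 and 258 to 626 TPM in polysome 3, against 136 to 565 TPM in input 1 and 167 to 597 TPM in input 3. The lowest was eIF3a in all 4 libraries. All 13 had a log2 fold change within 0.5 of 0, with a median of 0.058, and 9 were positive and 4 negative.

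eIF3a, the largest scaffold subunit, was at 460 and 562 CPM in the polysomes and 349 and 417 CPM in the inputs, with both polysome libraries above both inputs (0.41 ± 0.39, and 0.25 without polysome 3). eIF3d1, whose human counterpart can contact the cap, was at 402 and 357 CPM in the polysomes and 356 and 253 CPM in the inputs. Its fractions were separated by less than 1 CPM and the log2 fold change was 0.32 ± 0.40, with 0.091 without input 3 and 0.58 without input 1. eIF3h, a subunit of the outer octamer and the most abundant of eIF3 by mean input TPM, was at 463 and 418 CPM in the polysomes and 558 and 520 CPM in the inputs, below both inputs by -0.29 ± 0.38. Each of these differences was about the size of its SE or smaller.

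The other eIF3 subunits overlapped between fractions. The core subunits eIF3b, which carries an RNA-binding domain, and eIF3c were at 995 and 938 CPM and at 887 and 652 CPM in the polysomes, against 817 and 1026 CPM and 788 and 751 CPM in the inputs (0.069 ± 0.39 and -0.00023 ± 0.40). In polysome 1 eIF3f1, eIF3e and eIF3l were at 411, 543 and 573 CPM, and in polysome 3 at 207, 309 and 309 CPM. The inputs held them at 277, 489 and 429 CPM (input 1) and at 201, 352 and 334 CPM (input 3). All 3 were highest in polysome 1. eIF3j, a loosely bound subunit at the mRNA entry channel, was instead highest in polysome 3. It was at 193 and 331 CPM in the polysomes and 250 and 254 CPM in the inputs (0.058 ± 0.42). So was eIF3m, at 289 and 373 CPM in the polysomes and 352 and 272 CPM in the inputs. eIF3k was highest in input 1, at 191 and 215 CPM in the polysomes and 239 and 205 CPM in the inputs.

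**Figure D3:**
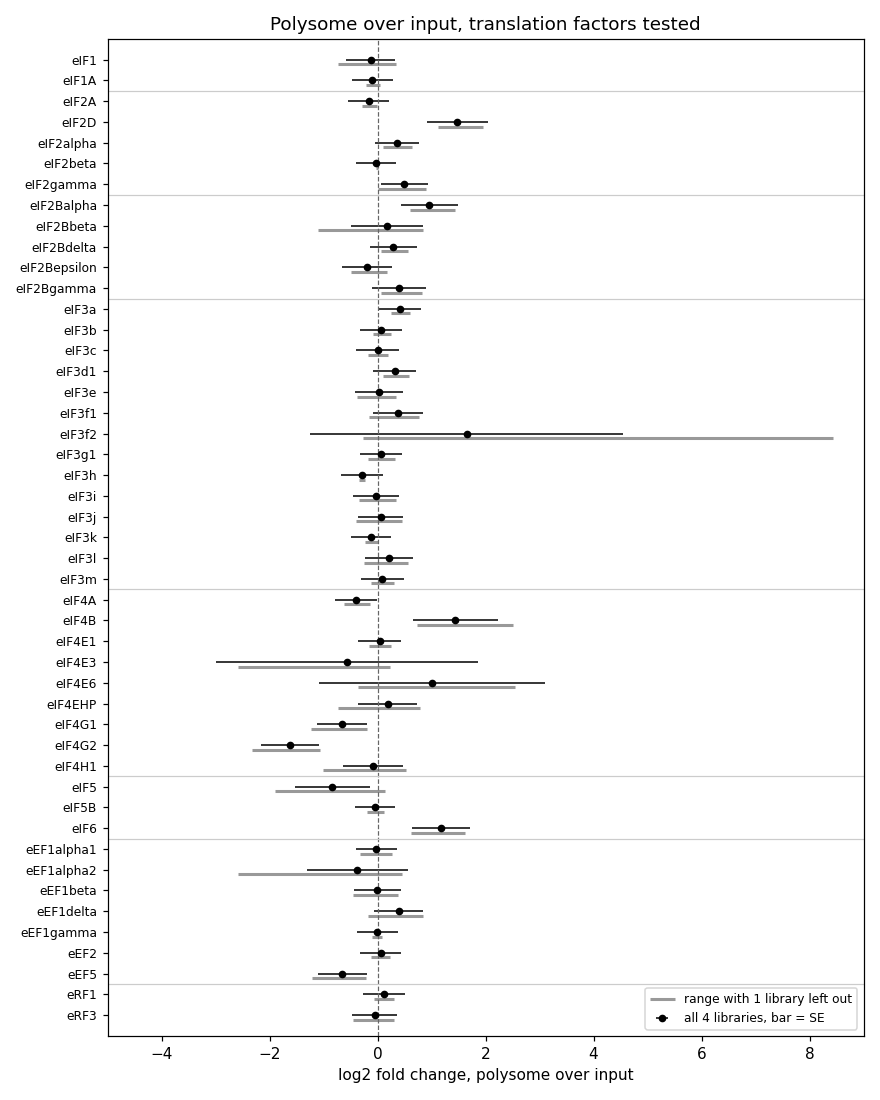
Log2 fold change of polysome over input for the 47 translation factors tested, ordered by subgroup, with the estimate over all 4 libraries and its SE in black and the range of estimates with 1 library left out in grey. eIF4G2 stays below 0 and eIF2D, eIF2Balpha, eIF4B and eIF6 stay above 0 in every such fit, whereas many other ranges cross 0.

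The cap-binding group held the factor furthest below its input. eIF4G is the scaffold that joins the cap-binding protein, the helicase and eIF3, and eIF4G2 is a paralog known in flies for its role in male germ cells at meiosis. eIF4G2 lies on chromosome 3R from 23808285 to 23819237 on the minus strand. It was at 77.6 and 171 CPM in the polysomes, against 261 and 508 CPM in the inputs. The fractions did not overlap, and the log2 fold change was -1.63 ± 0.54 at an unadjusted p of 0.0163 and an adjusted p of 0.956 in edgeR. Its translational efficiency was close in the replicates, at -1.37 (replicate 1) and -1.34 (replicate 3). On all 4 libraries, edgeR gave eIF4G2 an adjusted p of 0.0514 with no count filter and 0.0661 with the replicate block. DESeq2 gave it an adjusted p of 0.150, so it was called in none of these settings.

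The value for eIF4G2 depended on which library was used but kept its sign. It was -1.11 without polysome 1, -2.32 without polysome 3, -2.03 without input 1 and -1.06 without input 3. Without polysome 3 it passed at an adjusted p of 0.00991 in edgeR, in a fit that called 53 genes (0.549%) and in which the lone polysome library is assumed to vary like the inputs. It did not pass without any of the other 3 libraries. Exons of CG33111 overlap 779 of the 9097 exon bases of eIF4G2 on the same strand.

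eIF4G1, the general scaffold, was at 297 and 580 CPM in the polysomes and 566 and 820 CPM in the inputs. Polysome 3 lay just above input 1, and the log2 fold change was -0.66 ± 0.47, with -0.20 without polysome 1 and -1.24 without polysome 3. eIF4G2 took 20.7% (95% Wilson interval 19.8% to 21.6%) and 22.8% (22.2% to 23.4%) of all eIF4G counts in polysome 1 and 3, against 31.5% (30.5% to 32.5%) and 38.3% (37.5% to 39.1%) in input 1 and 3. The paralog's share was thus smaller in both polysome libraries than in both inputs.

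eIF4A, the DEAD-box helicase of the cap complex, was the most abundant initiation factor by input TPM. It was at 2720 and 2861 CPM in the polysomes and 3086 and 4305 CPM in the inputs, which did not overlap and differed by -0.41 ± 0.39 (-0.15 without input 3 and -0.63 without input 1). In the inputs its 1885 and 2707 TPM stood above the 436 and 592 TPM of the cap-binding protein eIF4E1 and the 131 and 195 TPM of eIF4G1. The polysomes had the same order, with 2073 and 2065 TPM for eIF4A, 610 and 648 TPM for eIF4E1 and 85.5 and 158 TPM for eIF4G1.

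The helicase cofactor eIF4B was rare and lay on the higher side. It was at 18.1 and 40.7 CPM in the polysomes and 5.15 and 16.6 CPM in the inputs, so both polysome libraries exceeded both inputs, though polysome 1 and input 3 were close. The log2 fold change was 1.44 ± 0.79, with 0.73 without polysome 3 and 2.51 without input 3. Without polysome 1 it was 1.96 and passed at an adjusted p of 0.0435 in edgeR, in a fit that called 695 genes (7.24%) and 2 factors, the other being eEF1alpha2 on the lower side. That fit rests on polysome 3 alone, the library that stood apart, and assumes that it varies like the inputs. eIF4H1, a related cofactor, was at 189 and 524 CPM in the polysomes and 291 and 466 CPM in the inputs (-0.083 ± 0.55). Its value was 0.53 without polysome 1 and -1.01 without polysome 3, so its direction rested on which polysome library was kept.

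eIF4E1 supplied most of the cap-binding transcripts. It was at 721 and 809 CPM in the polysomes and 644 and 848 CPM in the inputs (0.036 ± 0.40), and took 91.6% and 84.7% of the counts of the 7 eIF4E family genes in polysome 1 and 3, against 90.7% and 88.1% in input 1 and 3. eIF4EHP, which binds the cap without joining eIF4G and represses mRNAs such as caudal in the fly embryo, took most of the rest. It was at 52.4 and 144 CPM in the polysomes and 64.3 and 108 CPM in the inputs (0.18 ± 0.55, with 0.79 without polysome 1 and -0.73 without polysome 3). Its exons share 447 bases with Syx1A on the same strand.

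The remaining eIF4E paralogs were rare or not detected. eIF4E3, required in fly spermatogenesis, was at 2.51 and 0.329 CPM in the polysomes and 1.46 and 2.76 CPM in the inputs (-0.57 ± 2.43). eIF4E6 was at 6.58 and 1.48 CPM in the polysomes and 0.680 and 3.31 CPM in the inputs (1.01 ± 2.10). Both SEs exceeded the estimates, and in each case polysome 1 was the higher polysome library. eIF4E7 had 92 counts in polysome 1 (4.35 CPM) and 0 counts in polysome 3 and in both inputs, where 3 counts would be 0.123, 0.291 and 0.276 CPM. eIF4E4 had 1 count in polysome 3 and 1 in input 3, and eIF4E5, which acts in fly spermatids, had 0 counts in every library. Neither eIF4E7, eIF4E4 nor eIF4E5 was tested.

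**Figure D4:**
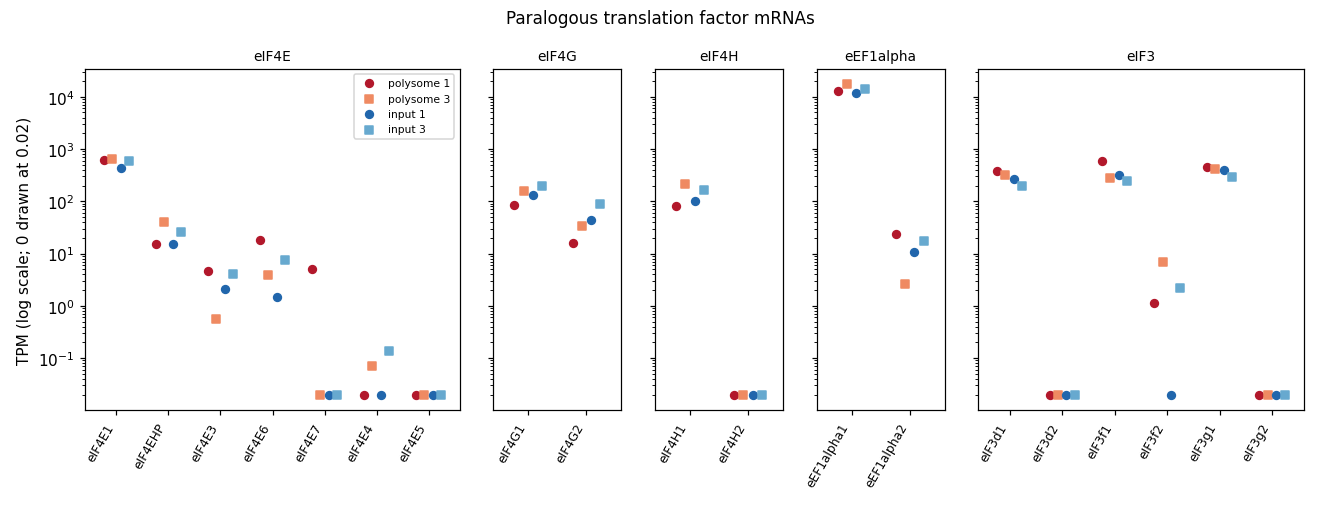
TPM of paralogous translation factors on a log axis, with 1 point per library (polysome 1 and 3 in red and orange, input 1 and 3 in dark and light blue) and 0 drawn at 0.02. In each family 1 member supplies most of the transcripts, and eIF4G2 comes nearest to its main paralog, at 16.1 and 33.7 TPM in the polysomes and 43.4 and 87.1 TPM in the inputs against the 85.5 and 158 TPM and the 131 and 195 TPM of eIF4G1.

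The second copies of eIF3 subunits and of eIF4H gave little or no signal in these ovaries. eIF3d2, eIF3g2 and eIF4H2 had 0 counts in all 4 libraries, which allows at most 0.142 and 0.123 CPM in the polysomes and 0.291 and 0.276 CPM in the inputs, as 3 counts per library. eIF3f2 was detected, at 0.615 and 4.03 CPM in the polysomes and 0 and 1.47 CPM in the inputs (1.65 ± 2.89, and -0.26 without polysome 3). Its counterpart eIF3f1 was at 411 and 207 CPM in the polysomes and 277 and 201 CPM in the inputs (0.37 ± 0.46), and eIF3g1, an RNA-binding subunit, at 245 and 234 CPM in the polysomes and 271 and 191 CPM in the inputs (0.055 ± 0.39). The general copies of d, f and g thus carried nearly all counts.

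Of the factors that act around start-codon choice and subunit joining, eIF6 was the one whose fractions did not overlap. eIF6 keeps free large subunits from joining small ones and takes part in large-subunit maturation. It lies on chromosome 2R from 23849246 to 23850301 and was at 39.5 and 74.7 CPM in the polysomes, against 21.0 and 29.8 CPM in the inputs. The log2 fold change was 1.17 ± 0.54 at an unadjusted p of 0.0616, with 0.62 without polysome 3 and 1.61 without polysome 1.

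eIF1, which guards start-codon selection, was at 335 and 667 CPM in the polysomes and 483 and 617 CPM in the inputs (-0.13 ± 0.46, with 0.33 without polysome 1 and -0.73 without polysome 3). eIF1A, its partner on the small subunit, was at 530 and 524 CPM in the polysomes and 514 and 613 CPM in the inputs (-0.097 ± 0.39). eIF5B, the GTPase of subunit joining, was at 194 and 232 CPM in the polysomes and 213 and 228 CPM in the inputs (-0.049 ± 0.37). All 3 overlapped between fractions.

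eIF5, which triggers GTP hydrolysis by eIF2, was at 20.1 and 63.7 CPM in the polysomes and 38.2 and 112 CPM in the inputs, with a log2 fold change of -0.84 ± 0.70. Polysome 3 lay above input 1, and without input 3 the value was 0.13. The level of eIF5 is uncertain, because exons of CG46312 on the same strand cover 2588 of its 3203 exon bases and reads that fit both genes are not counted for either. CG46312 itself had 0 counts in every library.

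eEF1alpha1, eEF5 and eEF2 were the most abundant members by mean input TPM. In CPM only eEF5 of the 7 elongation factors had fractions that did not overlap. eEF1alpha1, which delivers charged tRNAs to the ribosome, was at 16824 and 23923 CPM in the polysomes and 19577 and 21955 CPM in the inputs (-0.028 ± 0.38). eEF2, the translocase, was at 8414 and 6299 CPM in the polysomes and 7338 and 6834 CPM in the inputs (0.054 ± 0.38). In both cases the polysome libraries lay on either side of both inputs, in opposite order. By input TPM the order was eEF1alpha1 (12037 and 13894 TPM), eEF5 (5122 and 4370 TPM), eEF2 (3638 and 3487 TPM), eEF1gamma (1705 and 2002 TPM), eEF1beta (1440 and 1131 TPM), eEF1delta (513 and 437 TPM) and eEF1alpha2 (10.5 and 17.5 TPM). Neighbours in this order did not overlap between the input libraries.

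eEF5, the hypusine-bearing factor also known as eIF5A that helps ribosomes through difficult peptide bonds, was at 1094 and 2079 CPM in the polysomes and 2728 and 2262 CPM in the inputs. Both polysome libraries lay below both inputs, and the log2 fold change was -0.65 ± 0.45. Polysome 1 was the lower of the pair: leaving it out gave -0.21, leaving out polysome 3 gave -1.21, and translational efficiency was negative in replicate 1 but 0.077 in replicate 3.

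The exchange subunits that recharge eEF1alpha overlapped between fractions. eEF1beta was at 590 and 1013 CPM in the polysomes and 913 and 696 CPM in the inputs (-0.0053 ± 0.44). eEF1delta was at 256 and 497 CPM in the polysomes and 314 and 260 CPM in the inputs (0.39 ± 0.45). The structural subunit eEF1gamma was at 2074 and 1980 CPM in the polysomes and 1908 and 2176 CPM in the inputs (-0.011 ± 0.38). Both exchange subunits were highest in polysome 3 and lowest in polysome 1.

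eEF1alpha2, the second eEF1alpha gene, on chromosome 3R from 31738468 to 31743306, separated the polysome libraries from each other. It was at 33.3 CPM in polysome 1 and 3.87 CPM in polysome 3, against 18.5 and 29.8 CPM in the inputs, with a log2 fold change of -0.38 ± 0.93. Leaving out polysome 1 gave -2.58, at an adjusted p of 0.0366 in the edgeR fit that called 695 genes (7.24%) and has polysome 3 as its lone polysome library, assumed to vary like the inputs. Leaving out polysome 3 gave 0.45. It took 0.198% (95% Wilson interval 0.184% to 0.213%) of eEF1alpha counts in polysome 1 and 0.0162% (0.0132% to 0.0198%) in polysome 3, against 0.0943% and 0.136% in input 1 and 3. The summed muscle sheath markers were also lowest in polysome 3, at 6602 CPM against 21433 to 26896 CPM in the other libraries. One of them, sls, was instead lowest in polysome 1. Of the germline markers bgcn, bam and ovo were lowest in polysome 3 too, whereas vas, zpg, stwl and aub were highest there. Of the somatic ovary markers cas, Fas3 and eya were lowest there, whereas tj was highest. The part of any of these cell types in the value of eEF1alpha2 was not tested.

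Release factors overlapped between fractions in CPM. eRF1, which reads the stop codon, was at 301 and 371 CPM in the polysomes and 298 and 325 CPM in the inputs (0.11 ± 0.39, and -0.064 without polysome 3). eRF3, the GTPase that works with it, was at 294 and 471 CPM in the polysomes and 395 and 401 CPM in the inputs (-0.057 ± 0.42, and 0.30 without polysome 1). By TPM over summed exon length, eRF1 was at 183 and 214 TPM and eRF3 at 126 and 191 TPM in the polysomes. In the inputs the pair was near parity, at 145 and 163 TPM for eRF1 and 136 and 142 TPM for eRF3. That parity depends on the length used. Exons sum to 3112 bases for eRF1 and 4409 bases for eRF3, whereas 1 annotated transcript of each has 1873 and 4120 bases. Exons of CG5618 overlap 189 of the exon bases of eRF1 on the same strand.

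Partners and regulators of these factors were set beside them from a list of 26 symbols, of which 24 matched a gene and 23 were tested. edgeR called 0 of them, with 1 at an unadjusted p under 0.05, and 11 were positive and 12 negative. Both polysome libraries lay above both inputs in 4 (17.4%), against 17.2% of all genes, and below in 3 (13.0%), against 18.1%. HBS1 and pelo, relatives of eRF3 and eRF1 that rescue stalled ribosomes, were among the 4. HBS1 was at 89.0 and 46.4 CPM in the polysomes and 21.4 and 20.0 CPM in the inputs (1.71 ± 0.53), and pelo at 76.4 and 121 CPM in the polysomes and 60.7 and 58.1 CPM in the inputs (0.73 ± 0.42). The others were Dph5, of the pathway that modifies eEF2, and nero, the hydroxylase that completes hypusine on eEF5. pAbp, the poly(A)-binding partner of eIF4G, was among the 3, at 3036 and 4367 CPM in the polysomes and 5192 and 8125 CPM in the inputs (-0.85 ± 0.43), with S6k and the recycling factor pix. cup, an ovarian eIF4E-binding repressor, had 0 counts, and all 4306 of its exon bases lie within exons of CG34310 on the same strand, so it could not be measured by this counting.

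Other genes of the translation machinery were counted in the same way. Of 87 tested cytoplasmic ribosomal protein genes 83 had a negative log2 fold change, the median was -0.63, and in 61 (70.1%) the inputs did not overlap the polysomes and lay above them, where 18.1% of all genes tested did so. Of 18 aminoacyl-tRNA synthetase genes 15 were positive, 5 (27.8%) had both polysome libraries above both inputs, where 17.2% of all genes tested did so, and the median was 0.21. For the factors these were 22 negative of 47, 5 (10.6%) below, 6 (12.8%) above and a median of 0.036. These medians share the same 4 libraries and the difference between the lists was not tested.

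Transcript structure was looked up for the 47 tested factors in the annotation, since the rule had not used it. Their median 5′ UTR was 123 bases (33 to 1145) and their median 3′ UTR 201 bases (23 to 2009), against 157 and 265 bases over all protein-coding genes tested. The 8 factors with a 5′ UTR over 300 bases included eIF4G2 (661 bases), eIF4G1 (380 bases) and eIF5 (1145 bases), which lay on the lower side, but also eIF4E1 (761 bases), at 0.036. Across the 47 factors, which share the same 4 libraries, Spearman's rho between 5′ UTR length and log2 fold change was -0.24, and between 3′ UTR length and log2 fold change -0.41. Over 8515 and 8539 protein-coding genes the same values were -0.15 and -0.18. These values differed when the log2 ratio of each replicate was used instead. For the 5′ UTR rho was -0.15 (replicate 1) and -0.28 (replicate 3) in the factors, and -0.0054 and -0.19 over all these genes. For the 3′ UTR it was -0.40 and -0.23 in the factors, and -0.059 and -0.17 over all these genes.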

How the data were processed

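Libraries were poly(A)-selected, fragmented for 13 min and directional. The authors mapped reads to dm6 with STAR 2.6.1c and deposited raw read counts for each gene; the annotation release is not given in the sources used here. The strand column holding 95.3% to 97.1% of counts was used, and BDGP6.54 named 17561 of 17699 identifiers. Reads not assigned to a single gene were dropped, at 10.8% in polysome 1 and 33.2% to 42.6% in the other libraries. Reads that mapped to several places were among them, at 3.60% and 14.6% in the polysomes and 23.4% and 8.11% in the inputs.

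Counts were tested with edgeR 4.0.16 in R 4.3.3 (TMM, filterByExpr, fraction as sole term, Benjamini-Hochberg over 9038 genes, called under 0.05). The fits were also run on simulated counts with a fixed spread, the same for every gene. That check gives no power or error rate for these libraries. The SE is the fold change over the root of F. CPM are TMM-scaled and TPM use summed exon length. Alternatives were DESeq2 1.42.0, RLE factors, no count filter, unstranded counts, a replicate block, leaving out each library and a 0.1 TPM pseudocount.

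The study sets polysome libraries against corresponding lysates; that equal numbers mark them is assumed here. Deviations of equal numbers correlated at r = -0.028. No label says that replicates are separate flies or dissections; their spread, and so every p, may be technical. Members and lists were chosen with earlier results of these data known. Named in full were the 6 members per direction with the smallest p, paralog sets, each subgroup's most abundant member, release factors and untested members. Others were added after their values were seen. Sequences, promoter motifs and proteins were not analysed here.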

Additional observations from a re-analysis of the deposited data

How the results depend on the processing

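The number of genes called was 0 by the main test and with RLE factors and unstranded counts, 41 by DESeq2, 104 with no count filter, 47 with the replicate block and 0 to 695 with 1 library left out. Translation factors called stayed at 0 in all settings except those that left out a library, where they numbered 0 to 2. Their median log2 fold change ranged from -0.023 to 0.081 with 1 library left out. The subgroup medians ranged from -0.42 to 0.14 for eIF1, 0.0083 to 0.61 for eIF2, 0.13 to 0.45 for eIF2B, 0.0029 to 0.28 for eIF3, -0.46 to 0.25 for eIF4, -0.20 to 0.13 for eIF5 and eIF6, -0.19 to 0.0095 for eEF and -0.26 to 0.30 for eRF. Median translational efficiency was 0.25, and 0.28 with unstranded counts. Of 29 named factors 12 kept their sign with every library left out, and 27 under all other settings. The exceptions were eIF2Bbeta with the replicate block (-0.16) and eIF2beta with unstranded counts (0.037). The block changed no call on a factor. With 1 library left out, log2 fold changes ranged from -0.32 to 0.26 for eEF1alpha1, -2.58 to 0.45 for eEF1alpha2, -0.73 to 0.33 for eIF1, -1.11 to 0.83 for eIF2Bbeta, -0.032 to 0.0089 for eIF2beta, -0.16 to 0.76 for eIF3f1, -0.26 to 8.44 for eIF3f2, -0.18 to 0.32 for eIF3g1, -0.15 to 0.25 for eIF4E1, -2.59 to 0.23 for eIF4E3, -0.37 to 2.55 for eIF4E6, -0.73 to 0.79 for eIF4EHP, -1.01 to 0.53 for eIF4H1, -1.91 to 0.13 for eIF5, -0.20 to 0.13 for eIF5B, -0.064 to 0.31 for eRF1 and -0.45 to 0.30 for eRF3. The 8.44 is set against an input library at 0 counts, so it depends on the prior count and is no bound. The causes of the others were not tested. Paralogs under about 10 CPM had SEs above 2 on the log2 scale, so no difference in them could be shown with these libraries.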
